A study of Homo sapiens with 6 samples.

Results

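Integrins are cell-surface adhesion receptors, and the transcripts of 10 integrin subunits were followed in A549 cells after knockdown of the forkhead transcription factor FOXD3. The genes were taken by symbol. They are the alpha subunits ITGA2, ITGA3, ITGA5, ITGA6 and ITGAV and the beta subunits ITGB1, ITGB4, ITGB5, ITGB6 and ITGB8. All 10 were listed in all 6 libraries, out of 17789 symbols listed in at least 1 library, and all 10 passed the low-value filter that left 13340 symbols for testing.

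RNA-seq was carried out on 3 FOXD3 knockdown libraries and 3 control libraries of A549, an established human non-small-cell lung cancer line. In the FOXD3 knockdown group a commercial pool of small interfering RNAs against FOXD3 was delivered by lipid transfection, and knockdown was examined at 72 h by the submitters. The control group is labelled wild type, and the labels do not say what its wells received. Both groups are the same line in the same serum-containing medium, and the labels name no separate cultures; a p-value here reflects the spread among these libraries, which may be technical. Levels are FPKM, which corrects for transcript length and library size, so levels of different genes can be set side by side. Log2 changes are differences of log2(FPKM + 1), FOXD3 knockdown minus control, a scale that makes the changes of low genes look smaller, and an adjusted p is from limma with Benjamini-Hochberg adjustment over all 13340 symbols, with a threshold of 0.05.

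Each integrin is a pair of 1 alpha and 1 beta chain that spans the membrane, binds the extracellular matrix outside and links to actin or keratin filaments inside. ITGB1 pairs with many alpha chains, ITGB4 with ITGA6 alone, and ITGAV with several beta chains. In epithelia the pairs with ITGA3 and ITGA6 bind laminin, that with ITGA2 collagen, and that with ITGA5 fibronectin, while pairs of ITGAV with ITGB6 or ITGB8 release latent TGF-beta.

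FOXD3 itself was at 0 (not listed), 0.0749 and 0 (not listed) FPKM in FOXD3 knockdown replicates 1, 2 and 3, against 0.152, 0.291 and 0.134 FPKM in control replicates 1, 2 and 3. No knockdown library reached a control library (p = 0.1 by an exact permutation test, two-sided, a value that 3 libraries a group cannot go below). FOXD3 exons overlap FOXD3-AS1 on the opposite strand in GENCODE 29. The library depth, estimated from intronless genes, was 7190000 to 7910000 fragments in FOXD3 knockdown libraries and 6300000 to 7240000 in control libraries; FOXD3 was therefore near the limit of detection in both groups. The estimate is rough, since 4 to 8 genes carried it in each library and only values from 5000000 to 12000000 could enter. At that depth the highest of the 10 subunits, ITGB1, corresponded to 781 to 842 fragments per kilobase of transcript in FOXD3 knockdown libraries and 948 to 1160 in control libraries. The lowest, ITGB8, corresponded to 17.5 to 20.8 fragments per kilobase in FOXD3 knockdown libraries and 16.0 to 24.4 in control libraries. Epithelial markers (KRT8, KRT18, KRT19, EPCAM and CDH1) were abundant, with a summed level of 7215 to 7277 FPKM in FOXD3 knockdown libraries and 5051 to 6021 FPKM in control libraries. They did not all go the same way. Limma called KRT8, KRT18 and EPCAM higher and did not call KRT19. CDH1 was called lower, at 41.3 FPKM after knockdown and 48.2 FPKM in control. The CDH1 call was lost after median scaling (limma adjusted p = 0.197). Markers of other cell types were low. The 5 leukocyte markers summed to 1.48 to 2.03 FPKM in knockdown and 2.71 to 4.04 FPKM in control libraries, with CD3E listed in 1 knockdown library only. The 4 endothelial markers summed to 1.87 to 2.18 FPKM in knockdown and 2.55 to 3.40 FPKM in control libraries. The 5 fibroblast markers summed to 2.94 to 3.43 FPKM in knockdown and 3.59 to 4.46 FPKM in control libraries, with LUM listed in no library. The 4 platelet markers summed to 0.552 to 0.781 FPKM in knockdown and 1.22 to 1.65 FPKM in control libraries, with PF4 and GP9 listed in no library. Each of these 4 sums was lower after knockdown without overlap. Among all tested single symbols, 40.8% were lower without overlap and 69.1% did not overlap in either direction. In each of the 4 only 1 marker passed the low-value filter, namely CD14, CDH5, COL1A1 and GP1BA. COL1A1 was lower but not called (limma adjusted p = 0.0681). CD14 averaged 1.25 FPKM after knockdown and 2.92 FPKM in control. Markers under the filter did not all go that way. LYZ averaged 0.182 FPKM after knockdown and 0.0383 FPKM in control, and PECAM1 0.105 FPKM after knockdown and 0.0708 FPKM in control. The part of these markers in the integrin values was not tested.

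Sequence upstream of a start site is shown for the 4 subunits that have a single start in the RefSeq promoter table (GRCh38.p14), because they include ITGB6 and ITGA5, both lower after knockdown, and ITGA2 and ITGB8, which differed little. The table held 8 of the 10 subunits; ITGA3 and ITGB4 are the others. Each stretch runs 5′ to 3′ on the gene's own strand and stops before the most upstream transcript start in GENCODE 29, so lengths differ. Capitals mark the GC box letters GGGCGG, which read CCGCCC where the match is on the other strand.
ITGB6, chr2:160200314-160200522, minus strand: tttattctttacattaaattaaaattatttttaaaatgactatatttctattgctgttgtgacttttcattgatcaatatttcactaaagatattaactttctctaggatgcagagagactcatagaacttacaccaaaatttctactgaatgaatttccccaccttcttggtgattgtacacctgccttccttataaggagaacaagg
ITGA5, chr12:54419461-54419516, minus strand: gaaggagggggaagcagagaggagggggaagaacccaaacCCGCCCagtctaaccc
ITGA2, chr5:52989102-52989325, plus strand: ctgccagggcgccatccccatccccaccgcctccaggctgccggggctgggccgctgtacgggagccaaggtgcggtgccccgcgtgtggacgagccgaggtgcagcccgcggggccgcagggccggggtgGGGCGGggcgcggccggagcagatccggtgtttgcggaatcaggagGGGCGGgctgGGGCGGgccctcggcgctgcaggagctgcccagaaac
ITGB8, chr7:20330650-20330701, plus strand: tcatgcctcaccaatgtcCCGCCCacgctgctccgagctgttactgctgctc
The ITGB6 stretch of 209 bases was 30.1% G or C and held 0 CpG dinucleotides, whereas the ITGA2 stretch of 224 bases was 77.2% G or C with 24 CpG dinucleotides. Across 35116 promoters of 250 bases the median was 58.0% with 11 CpG dinucleotides. The stretches of ITGA5 and ITGB8 were only 56 and 52 bases long and left out the 194 and 198 bases next to the start, so their motif counts cannot be set beside those of the longer ones. GC boxes numbered 0 in ITGB6 and 3 in ITGA2, where 36.9% and 39.4% of all promoters held at least 1 in a stretch of the same length and place. They numbered 1 in ITGA5 and 1 in ITGB8, where 9.93% and 9.12% of all promoters did. The forkhead letters TGTTTAC, the AP-1 letters TGANTCA, the TEAD letters GGAATG and the NF-kB motif, each searched on both strands, had 0 matches in these stretches. In whole promoters of 250 bases the shares with a match were 2.98%, 6.57%, 11.9% and 5.21%, and 42.6% for the GC box; in the stretch of ITGB8, the shortest, they were 0.632%, 1.21%, 2.53% and 0.894%.

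The mean of each of the 10 subunits was lower in FOXD3 knockdown libraries, by 9.62% for ITGB5 at the least and 45.7% for ITGA3 at the most. Limma called 9 of the 10 lower and 0 higher, where 63.5% of all tested symbols were called in either direction, 37.9% lower and 25.6% higher. The median log2 change of the 10 subunits was -0.40, against -0.09 over all tested symbols. Knockdown and control libraries were fully separate in 9 of the 10, where 69.1% of all tested symbols did not overlap and 40.8% did so with knockdown lower. Scaling decided part of this count. When each library was scaled to the median of its genes, the median change of all symbols moved by 0.11 to 0.02, the share of calls that were higher was 53.5% in place of 40.4%, and 5 of the 10 subunits were called lower. Those 5 were ITGA3, ITGA5, ITGB6, ITGB4 and ITGB1, where 29.6% of all symbols were then called lower, 34.0% higher and 63.6% in either direction. Quantile normalization, which moved the median of all symbols by 0.11 to 0.03, gave 9 subunits called lower, where 29.3% of all symbols were called lower, 32.3% higher and 61.6% in either direction. In bulk RNA, fewer cells of a type and less RNA per cell cannot be told apart.

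**Figure D1:**
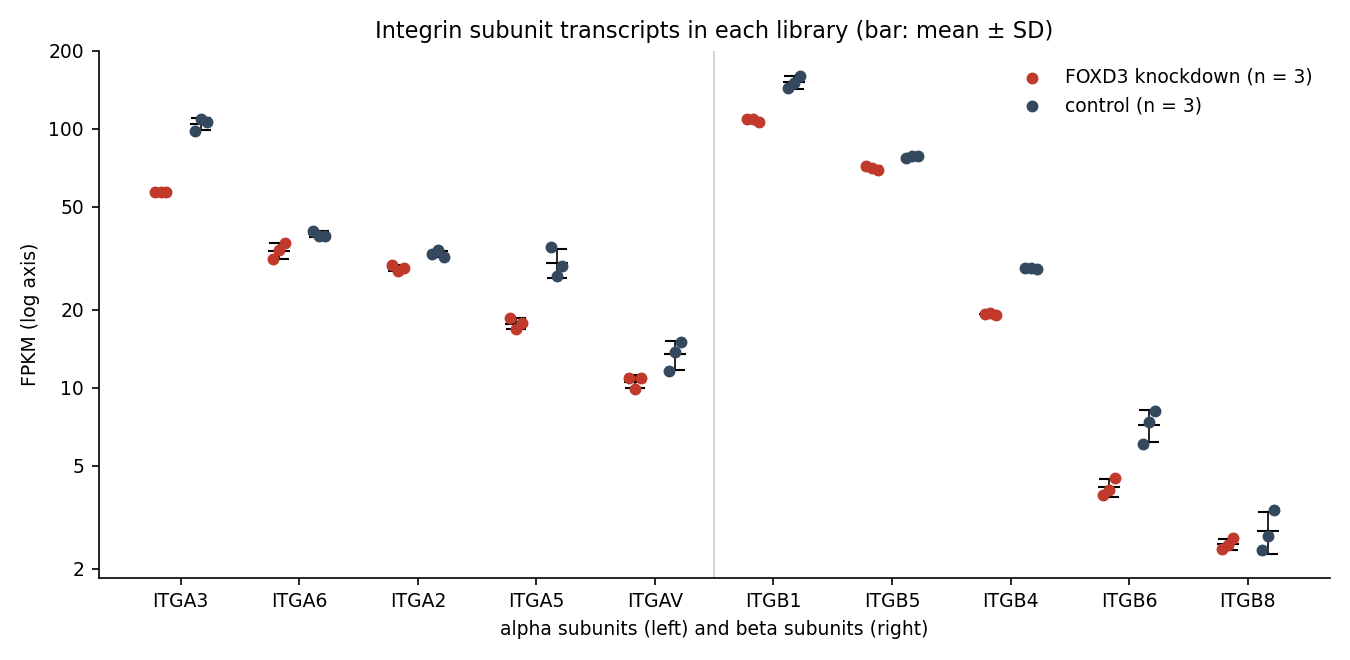
FPKM (log axis) of the 10 subunits in each of the 3 FOXD3 knockdown libraries (red, left) and 3 control libraries (dark blue, right); horizontal bars are the mean and whiskers the SD. The groups separate in all but ITGB8, and the fold between the group means is largest in ITGA3, ITGA5 and ITGB6.

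The laminin-binding chain ITGA3 (Entrez 3675, hg19 chromosome 17, bases 48133340 to 48167849) fell furthest. ITGA3 stood at 56.8, 56.8 and 56.8 FPKM in FOXD3 knockdown replicates 1, 2 and 3, against 98.1, 109 and 106 FPKM in control replicates 1, 2 and 3. Every knockdown library was far below every control library, and the 3 knockdown values were almost equal. The mean was 56.8 ± 0.0416 FPKM after knockdown and 105 ± 5.84 FPKM in control (SD, n = 3 each), 1.84-fold lower. The ITGA3 log2 change was -0.87 (SE 0.05; limma adjusted p = 4.0e-06) and -0.74 after median scaling. It lay at the 8.35th percentile of the changes of all tested symbols.

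ITGA6, the other laminin-binding alpha chain (Entrez 3655, chromosome 2, 173292314 to 173371181, hg19), changed much less. ITGA6 stood at 31.4, 34.0 and 36.2 FPKM in FOXD3 knockdown libraries, against 40.4, 38.5 and 38.5 FPKM in control libraries. The highest knockdown library came close to the lowest control library without reaching it. The ITGA6 log2 change was -0.21 (SE 0.06; limma adjusted p = 0.0168), and it came to -0.08 with the call lost after median scaling (limma adjusted p = 0.339). Without FOXD3 knockdown replicate 1 the ITGA6 change was -0.15 and the call was also lost (limma adjusted p = 0.0644). The limma adjusted p ranged from 0.00818 to 0.339 over 14 alternatives.

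ITGB4, which pairs with ITGA6 and anchors keratin filaments at hemidesmosomes (Entrez 3691, chromosome 17, 73717516 to 73753899, hg19), fell more than its partner. ITGB4 stood at 19.3, 19.4 and 19.1 FPKM in FOXD3 knockdown libraries, against 29.1, 29.1 and 28.7 FPKM in control libraries. Replicates lay close together in both groups and the groups were well apart. The ITGB4 mean was 19.3 ± 0.150 FPKM after knockdown and 28.9 ± 0.240 FPKM in control (SD, n = 3 each), 1.50-fold lower, with a log2 change of -0.56 (SE 0.05; limma adjusted p = 2.2e-05) and of -0.44 after median scaling.

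ITGA5, the alpha chain of the classical fibronectin receptor (Entrez 3678, chromosome 12, 54789045 to 54813050, hg19), was the second-largest faller on the log2 scale. ITGA5 stood at 18.5, 16.9 and 17.7 FPKM in FOXD3 knockdown libraries, against 34.8, 27.0 and 29.5 FPKM in control libraries. The controls were spread more widely than the knockdown libraries, and the groups did not overlap. Its mean was 17.7 ± 0.830 FPKM after knockdown and 30.4 ± 3.98 FPKM in control (SD, n = 3 each), 1.72-fold lower, with a log2 change of -0.74 (SE 0.09; limma adjusted p = 0.000172) and of -0.62 after median scaling.

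ITGA2, the collagen-binding chain (Entrez 3673, chromosome 5, 52285156 to 52390609, hg19), showed a small difference. ITGA2 stood at 29.9, 28.1 and 28.9 FPKM in FOXD3 knockdown libraries, against 32.7, 33.9 and 32.0 FPKM in control libraries. The groups were close but separate. The ITGA2 log2 change was -0.18 (SE 0.05; limma adjusted p = 0.0138), and it came to -0.05 with the call lost after median scaling (limma adjusted p = 0.417). Without FOXD3 knockdown replicate 2 the ITGA2 change was -0.16 and the call was also lost (limma adjusted p = 0.0576). The limma adjusted p ranged from 0.0116 to 0.417 over 14 alternatives.

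ITGB1, the beta chain of the pairs with ITGA2, ITGA3 and ITGA5 and the most abundant of the 10 (Entrez 3688, chromosome 10, 33189246 to 33247293, hg19), was lower after knockdown. ITGB1 stood at 109, 109 and 106 FPKM in FOXD3 knockdown libraries, against 143, 151 and 160 FPKM in control libraries. The gap between the groups was wider than the spread within either. The ITGB1 mean was 108 ± 1.42 FPKM after knockdown and 151 ± 8.34 FPKM in control (SD, n = 3 each), 1.40-fold lower, with a log2 change of -0.48 (SE 0.05; limma adjusted p = 6.2e-05) and of -0.35 after median scaling.

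ITGAV, the alpha chain of the vitronectin receptors (Entrez 3685, chromosome 2, 187454790 to 187545628, hg19), was the lowest of the alpha chains. ITGAV stood at 10.9, 9.87 and 10.9 FPKM in FOXD3 knockdown libraries, against 11.6, 13.7 and 15.1 FPKM in control libraries. The lowest control library lay just above the knockdown libraries. The ITGAV log2 change was -0.32 (SE 0.09; limma adjusted p = 0.0181). It came to -0.20 with the call lost after median scaling (limma adjusted p = 0.0814), and the call was also lost without FOXD3 knockdown replicate 2 (limma adjusted p = 0.0639), control replicate 2 (0.0527) or control replicate 3 (0.0591), in a range of 0.00229 to 0.0814 over 14 alternatives.

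Among the ITGAV partners ITGB1, ITGB5, ITGB6 and ITGB8, ITGB6 had the largest log2 change. ITGB6, an epithelial chain whose pair with ITGAV activates latent TGF-beta (Entrez 3694, hg19 chromosome 2, bases 160958233 to 161056590), was low at 3.85, 4.04 and 4.47 FPKM in FOXD3 knockdown libraries, against 6.08, 7.37 and 8.14 FPKM in control libraries. The groups did not overlap. Its mean was 4.12 ± 0.319 FPKM after knockdown and 7.20 ± 1.04 FPKM in control (SD, n = 3 each), 1.75-fold lower, with a log2 change of -0.67 (SE 0.11; limma adjusted p = 0.00079) and of -0.56 after median scaling.

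ITGB5, a vitronectin-binding partner (Entrez 3693, chromosome 3, 124481795 to 124606144, hg19), was abundant and differed by the least of the called subunits. ITGB5 stood at 71.7, 70.6 and 69.2 FPKM in FOXD3 knockdown libraries, against 77.3, 78.4 and 78.2 FPKM in control libraries. Tight replicates kept the groups apart. The ITGB5 log2 change was -0.14 (SE 0.04; limma adjusted p = 0.0117), and it came to -0.01 with the call lost after median scaling (limma adjusted p = 0.797). The ITGB5 call was also lost without FOXD3 knockdown replicate 3 (limma adjusted p = 0.0534), in a range of 0.00196 to 0.797 over 14 alternatives.

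ITGB8, the other TGF-beta-activating partner (Entrez 3696, chromosome 7, 20370725 to 20455382, hg19), was the lowest of the 10. ITGB8 stood at 2.38, 2.48 and 2.63 FPKM in FOXD3 knockdown libraries, against 2.36, 2.67 and 3.37 FPKM in control libraries. The groups overlapped, and control replicate 1 was the lowest library of all. The ITGB8 log2 change was -0.11 (SE 0.11; limma adjusted p = 0.411), and its sign turned to 0.15 after quantile normalization. Without control replicate 3 the ITGB8 change was -0.01 and without control replicate 1 it was -0.20.

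**Figure D2:**
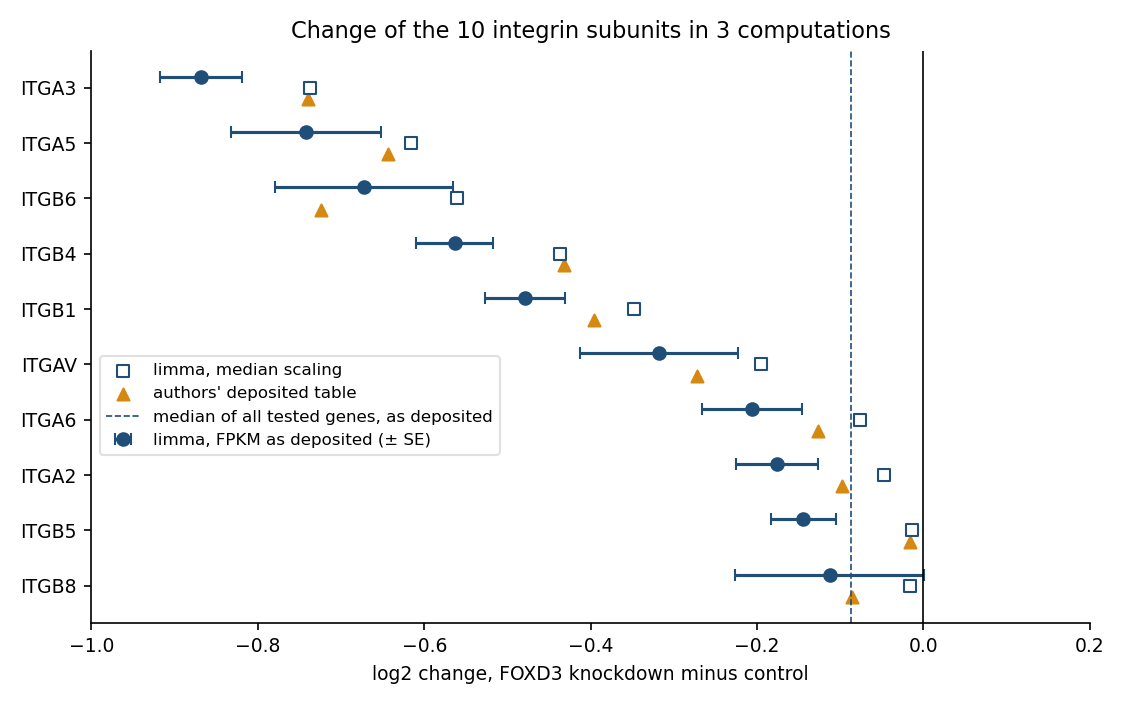
Log2 change (FOXD3 knockdown minus control) of each subunit from limma on FPKM as deposited (circles, ± SE), after median scaling (squares) and in the authors' deposited table (triangles); the dashed line is the median of all tested symbols as deposited. ITGA3, ITGA5, ITGB6, ITGB4 and ITGB1 lie left of -0.3 in all of them.

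The authors' deposited table, which holds 1 FPKM value per group, gave all 10 subunits a log2 fold change below 0. It put 3 of them under a false discovery rate of 0.05. Of its 12275 genes, 22.1% were under that rate in either direction and 11.2% were under it and lower. In the authors' deposited table ITGA3 had a log2 fold change of -0.74 (false discovery rate 0.00898), ITGB6 -0.72 (0.0335) and ITGA5 -0.64 (0.0195). That table gave ITGB4 -0.43 (0.144) and ITGB1 -0.40 (0.208) in the authors' deposited comparison. The authors' deposited values for ITGAV, ITGA6, ITGA2, ITGB8 and ITGB5 were -0.27, -0.13, -0.10, -0.09 and -0.02, with false discovery rates of 0.422 to 0.972. The authors' deposited table had a median of 0.03 over 12260 genes with a finite fold change.

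The order of the subunits by level was nearly the same in both groups. From the top it ran ITGB1, ITGB5, ITGA3, ITGA6, ITGA2, ITGB4, ITGA5, ITGAV, ITGB6, ITGB8 by mean FPKM in FOXD3 knockdown libraries, and no neighbours in that order overlapped. In control libraries ITGA3 stood above ITGB5 and ITGA5 above ITGB4. The ranges of ITGA2 and ITGA5, and of ITGA5 and ITGB4, overlapped there.

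The 5 alpha chains together came to 148 ± 2.42 FPKM in FOXD3 knockdown libraries and 221 ± 2.59 FPKM in control libraries, and the 5 beta chains to 204 ± 2.35 FPKM in knockdown and 268 ± 10.1 FPKM in control libraries (SD, n = 3 each). The summed alpha level was 1.49-fold lower and the summed beta level 1.31-fold lower after knockdown (exact two-sided permutation test, p = 0.1 for each, the smallest possible). The makeup of the sums shifted, and a share within a library does not depend on how libraries are scaled to each other. ITGA3 made up 38.4% ± 0.651 of the alpha sum after knockdown and 47.4% ± 2.10 in control. ITGA6 made up 22.9% ± 1.42 after knockdown and 17.8% ± 0.692 in control, and ITGA2 19.6% ± 0.571 after knockdown and 14.9% ± 0.407 in control. ITGA3 thus held less, and ITGA6 and ITGA2 more, of the alpha transcripts in every knockdown library than in any control library. Shares of a sum are tied to each other, so a smaller ITGA3 share makes the remaining shares larger. The FPKM of ITGA6 and ITGA2 themselves were lower after knockdown. The share of ITGA5, at 11.97% ± 0.523 after knockdown and 13.8% ± 1.97 in control, overlapped between the groups, as did that of ITGAV, at 7.15% ± 0.329 after knockdown and 6.11% ± 0.730 in control. Without control replicate 1 the ITGA5 difference was -0.76 percentage points in place of -1.85, and the ITGAV difference 0.66 in place of 1.04.

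Among the beta chains ITGB5 took a greater part after knockdown, although its own FPKM was lower. ITGB5 made up 34.5% ± 0.235 of the beta sum in FOXD3 knockdown libraries and 29.1% ± 0.932 in control libraries. ITGB1 made up 52.9% ± 0.101 after knockdown and 56.4% ± 0.992 in control. ITGB4 made up 9.42% ± 0.0577 after knockdown and 10.8% ± 0.486 in control, and ITGB6 2.02% ± 0.180 after knockdown and 2.68% ± 0.290 in control. These groups did not overlap. ITGB8 held 1.22% ± 0.0746 after knockdown and 1.04% ± 0.153 in control, with overlap, a difference of 0.18 percentage points that was 0.12 without control replicate 1. For the 10 shares the exact two-sided permutation p was 0.1 where the groups did not overlap and 0.2 to 0.3 for ITGA5, ITGAV and ITGB8. Among all tested single symbols, 69.1% did not overlap.

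**Figure D3:**
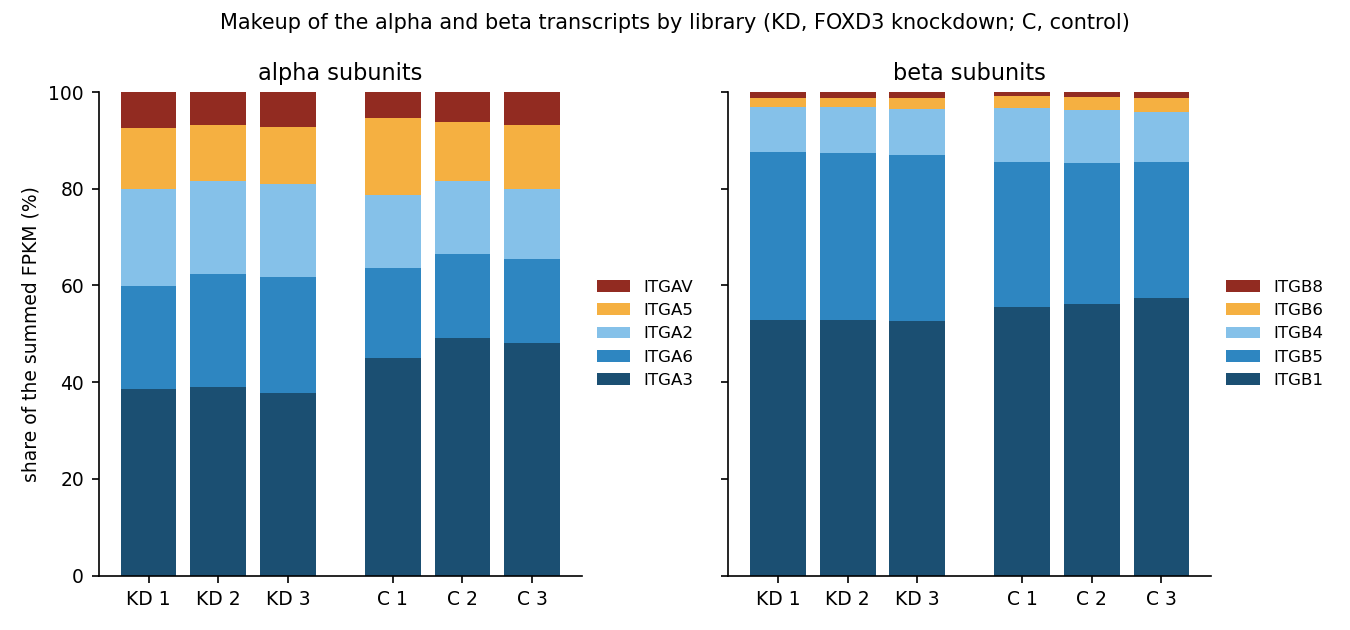
Share of the summed FPKM (%) held by each alpha subunit (left panel) and each beta subunit (right panel) in FOXD3 knockdown replicates 1 to 3 (KD) and control replicates 1 to 3 (C). The ITGA3 block is shorter and the ITGA6, ITGA2 and ITGB5 blocks are taller in all knockdown bars.

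Ratios of a beta chain to its alpha partner within a library were compared for 9 pairings. The groups did not overlap in 6 of the 9, which was near the 69.1% of single symbols that did not overlap. That share is for single symbols and not for ratios, and several of the ratios have a subunit in common. With 3 libraries a group, p could not go below 0.1 (0.15 after Benjamini-Hochberg adjustment over the 9 ratios, by exact two-sided permutation tests). The ratio of ITGB6 to ITGAV moved furthest. It was 0.353, 0.409 and 0.409 in FOXD3 knockdown libraries, against 0.522, 0.537 and 0.540 in control libraries, a log2 difference of -0.45 (SE 0.07). The ratio of ITGB4 to ITGA6 was 0.615, 0.569 and 0.528 in FOXD3 knockdown libraries, against 0.720, 0.754 and 0.744 in control libraries, a log2 difference of -0.38 (SE 0.07). These ratios of ITGB6 and ITGB4 were thus lower in every knockdown library than in any control library.

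ITGB1 gained on ITGA3 and lost on ITGA2 and ITGA6. The ratio of ITGB1 to ITGA3 was 1.92, 1.91 and 1.88 in FOXD3 knockdown libraries, against 1.46, 1.38 and 1.50 in control libraries, a log2 difference of 0.40 (SE 0.04). For ITGB1 to ITGA2 the mean ratio was 3.73 ± 0.111 after knockdown and 4.60 ± 0.341 in control, and for ITGB1 to ITGA6 it was 3.20 ± 0.266 after knockdown and 3.87 ± 0.304 in control (SD, n = 3 each). The ratio of ITGB1 to ITGA5 was higher after knockdown, at 6.11 ± 0.290, than in control, at 5.03 ± 0.803, a log2 difference of 0.29 that was 0.15 without control replicate 1. The ratios of ITGB1, ITGB5 and ITGB8 to ITGAV overlapped between the groups, with log2 differences of -0.14, 0.20 and 0.19. The ITGB1 to ITGAV difference was -0.08 without control replicate 1, and that of ITGB5 to ITGAV was 0.12 without control replicate 3.

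**Figure D4:**
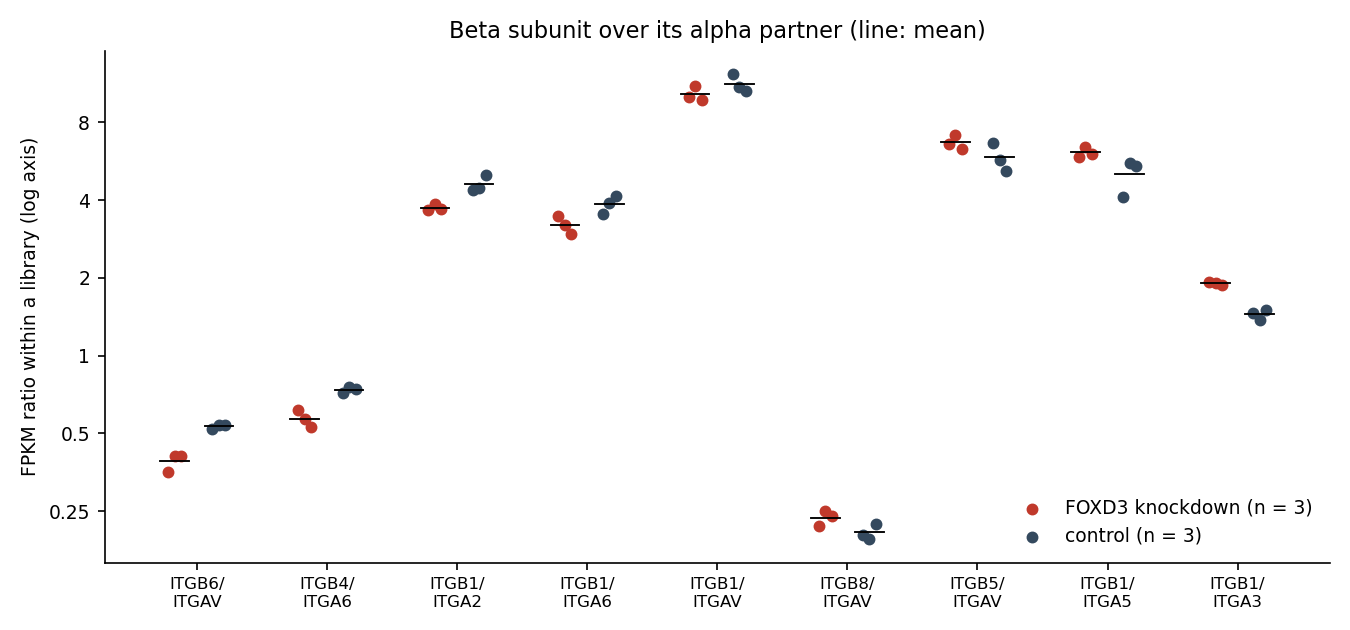
FPKM ratio of a beta subunit to its alpha partner within each library (log axis) for the 9 pairings, FOXD3 knockdown in red on the left and control in dark blue on the right; lines are means. ITGB6 to ITGAV and ITGB4 to ITGA6 are lower, and ITGB1 to ITGA3 is higher, in all 3 knockdown libraries.

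The other human integrin subunits were mostly near or under the limit of the test. Of 16, ITGA8 was listed in no library and 5 passed the filter, 2 of them (ITGB3 and ITGA1) only through their control level. Of the other 3, limma called ITGB2 and ITGA2B lower and ITGAE higher. Among the 12749 symbols that reached the filter in both groups, 62.9% were called in either direction and 36.6% lower. ITGB2, the beta chain of leukocyte integrins, stood at 3.09, 3.03 and 3.66 FPKM in FOXD3 knockdown libraries, against 11.8, 13.7 and 13.8 FPKM in control libraries. Its log2 change of -1.73 (SE 0.09; limma adjusted p = 3.2e-06) was of greater size than that of any of the 10 subunits above. The alpha partners of ITGB2 were close to 0, with ITGAM at 0.0406 ± 0.0380 FPKM after knockdown and 0.173 ± 0.0214 FPKM in control and ITGAL listed in 1 control library. The pan-leukocyte marker PTPRC stood at 0.194 ± 0.0430 FPKM after knockdown and 0.227 ± 0.0713 FPKM in control (SD, n = 3 each), with overlap. The summed leukocyte markers given above, of which only CD14 passed the filter, were lower after knockdown. The part of these markers in the ITGB2 value was not tested. ITGAE, an alpha chain of intraepithelial lymphocytes, rose to 5.03 ± 0.132 FPKM after knockdown, against 3.30 ± 0.523 FPKM in control (log2 change 0.49, SE 0.10; limma adjusted p = 0.00336), while its partner ITGB7 was under the filter at 0.403 ± 0.146 FPKM after knockdown and 0.521 ± 0.108 FPKM in control. In GENCODE 29, exons of ITGAE overlap HASPIN, and those of ITGB2 overlap ITGB2-AS1, on the opposite strand; with no stated strand setting, reads of such pairs cannot be told apart. ITGA2B, a platelet alpha chain, averaged 0.740 ± 0.0174 FPKM after knockdown and 1.32 ± 0.0977 FPKM in control (SD, n = 3 each), and its call was lost after quantile normalization (limma adjusted p = 0.396, in a range of 0.000733 to 0.396 over 13 alternatives). ITGB3 averaged 0.0710 FPKM after knockdown and 1.04 FPKM in control, and ITGA1 0.244 FPKM after knockdown and 1.08 FPKM in control; a difference was built into their passing the filter, so no call is read from them.

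Cytoplasmic proteins that activate integrins or tie them to actin were lower or not called. Of 22 tested, LIMS2 and TLN2 passed the filter only through control. Of the other 20, limma called 13 lower and 0 higher, with a median log2 change of -0.20, where 36.6% of the 12749 symbols that reached the filter in both groups were called lower, 62.9% in either direction, and their median was -0.07. The 65.0% called was thus near that background. After median scaling 8 of the 20 were called lower and 0 higher, with a median of -0.08. Of the 12749 symbols, 3576 were then called lower and 4482 higher, with a median of 0.04. Over all 22, quantile normalization gave 13 lower and 1 higher, beside 29.3% lower and 32.3% higher among all tested symbols. LIMS2, a LIM-domain adaptor of the ILK complex, was at 0.372 ± 0.156 FPKM after knockdown and 3.65 ± 0.280 FPKM in control. TNS3, a tensin that binds beta tails, was at 26.7 ± 0.464 FPKM after knockdown and 47.9 ± 1.73 FPKM in control, and its relative TNS1 at 2.33 ± 0.150 after knockdown and 4.79 ± 0.144 FPKM in control (SD, n = 3 each). TLN2, a talin, was at 0.467 ± 0.0665 FPKM after knockdown and 0.956 ± 0.0907 FPKM in control (SD, n = 3 each).

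Inhibitors of integrin activation went both ways, with 2 higher and 3 lower of 7 tested, and 4 higher and 3 lower after median scaling. The 71.4% called lay near the 63.5% of all tested symbols. After median scaling 34.0% of all tested symbols were called higher and 29.6% lower. ITGB1BP1, which binds the ITGB1 tail and competes with talin, rose to 27.4 ± 1.34 FPKM after knockdown, against 15.5 ± 1.60 FPKM in control (log2 change 0.78, SE 0.08; limma adjusted p = 6.9e-05). DAB2, an endocytic adaptor, fell to 2.91 ± 0.357 FPKM, against 7.63 ± 1.02 FPKM in control, and DOK1, a docking protein, to 1.82 ± 0.203 FPKM, against 4.37 ± 0.751 FPKM in control (SD, n = 3 each). SHARPIN, which binds alpha tails, was called lower with a log2 change of -0.32.

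The hemidesmosome partners of ITGA6 and ITGB4 went both ways. Of 7 tested, limma called 3 higher and 4 lower, beside 25.6% higher and 37.9% lower among all tested symbols. The laminin chains LAMA3 and LAMB3 were lower, with LAMA3 at 10.2 ± 0.953 FPKM after knockdown and 28.6 ± 4.41 FPKM in control, and LAMB3 at 50.6 ± 2.69 FPKM after knockdown and 130 ± 5.20 FPKM in control (SD, n = 3 each). COL17A1, a transmembrane collagen, was lower too, at 1.19 ± 0.195 FPKM after knockdown and 3.64 ± 0.916 FPKM in control. PLEC, the plakin that binds the ITGB4 tail, was higher, at 44.1 ± 1.85 FPKM after knockdown and 29.3 ± 1.50 FPKM in control, as were the plakin DST (log2 change 0.34) and the tetraspanin CD151 (0.23). The DST call was lost in some alternatives (limma adjusted p up to 0.0634). PLEC, DST and CD151 thus moved opposite to ITGB4.

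Tetraspanins and other lateral partners held 4 higher and 5 lower of 10, beside 25.6% higher and 37.9% lower among all tested symbols. The median log2 change of the 10 was -0.14. After median scaling 4 were higher and 4 lower, beside 34.0% higher and 29.6% lower among all tested symbols. CD82, a tetraspanin, fell to 7.63 ± 0.126 FPKM after knockdown, against 25.0 ± 3.40 FPKM in control, and CD47, an integrin-associated immunoglobulin-like protein, to 74.3 ± 0.712 FPKM after knockdown, against 170 ± 19.1 FPKM in control (SD, n = 3 each). PLAUR, the urokinase receptor, was lower (log2 change -0.78) and CAV1, caveolin, higher (0.55).

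Of 24 integrin ligands 19 were tested, and NPNT, at 0.761 FPKM after knockdown and 0.263 FPKM in control, passed the filter only through knockdown. Of the other 18, limma called 12 lower and 2 higher. Among all symbols that reached the filter in both groups, 36.6% were called lower and 62.9% in either direction. The median log2 change of the 18 was -0.51, and -0.38 after median scaling. Beside LAMA3 and LAMB3, CYR61, a matricellular ligand, fell to 35.7 ± 1.01 FPKM after knockdown, against 96.1 ± 7.61 FPKM in control. Fibronectin (FN1), the ligand of the pair of ITGA5 and ITGB1, named after its values were seen, fell to 303 ± 12.6 FPKM, against 749 ± 95.2 FPKM in control. SPP1, osteopontin, which binds ITGAV pairs, went the other way with a log2 change of 2.22. In the latent TGF-beta list 6 of 10 tested were called lower and 0 higher, and 6 lower and 1 higher after median scaling. The 60.0% called lay near the 63.5% of all tested symbols called in either direction, of which 37.9% of all tested symbols were lower. After median scaling 29.6% of all tested symbols were called lower and 34.0% higher. TGFB1 itself fell to 23.4 ± 0.559 FPKM, against 33.6 ± 1.23 FPKM in control, and LTBP2 and LTBP4, from the family of latent TGF-beta binding proteins, were lower too, LTBP2 at 17.9 ± 0.529 FPKM after knockdown and 34.5 ± 2.90 FPKM in control, and LTBP4 at 10.1 ± 0.319 after knockdown and 19.3 ± 0.751 FPKM in control (SD, n = 3 each). LTBP3 was called lower with a log2 change of -0.45.

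**Figure D5:**
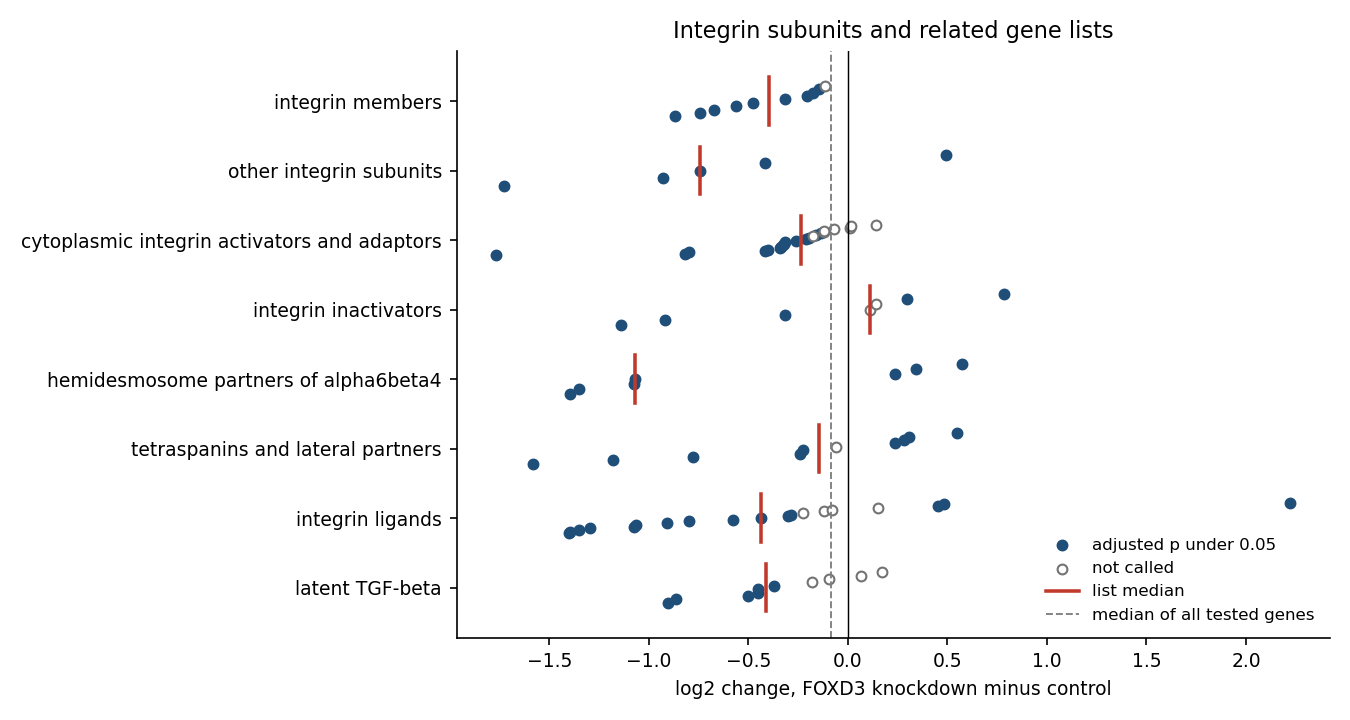
Log2 change (FOXD3 knockdown minus control) of each tested gene in the integrin subunits and the related lists; filled points passed limma's adjusted p of 0.05 (ITGB3, ITGA1, LIMS2, TLN2 and NPNT among them passed the low-value filter through 1 group), red bars are list medians and the dashed line is the median of all tested symbols. Points of the 10 subunits lie between -0.87 and -0.11, while each of the other lists has points on both sides of 0.

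The genes whose pattern was most like that of ITGA3 over the 6 libraries, among 9161 others with a mean of at least 5 FPKM, were LAMB2, STX16 and VEGFA, with Pearson correlations of 0.9997, 0.9996 and 0.9994. Such values are mostly set by the difference between the groups, and 36.5% of these genes had a correlation of at least 0.95 in size. LAMB2, a laminin beta chain, stood at 21.8 ± 0.256 FPKM after knockdown and 38.7 ± 2.16 FPKM in control. VEGFA, a vascular growth factor, stood at 19.1 ± 0.337 FPKM after knockdown and 37.4 ± 2.66 FPKM in control, and STX16, a syntaxin, at 31.1 ± 0.383 after knockdown and 52.0 ± 2.51 FPKM in control (SD, n = 3 each).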

How the data were processed

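RNA-seq covered 3 FOXD3 knockdown and 3 control libraries, grouped by the labelled genotype. The authors deposited an FPKM value per gene and library, per the file headers. Their second deposited table has 1 FPKM per group with log2 fold change, p-value and false discovery rate. The submitters' processing notes name TopHat2 2.0.12, Bowtie, Cufflinks 2.0.2, Cuffdiff and hg19; strand setting and annotation: not given in the sources used here. Without counts, count models were not used.

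Loci of a symbol were summed and unlisted symbols set to 0, which may be failed estimates. Symbols averaging at least 0.5 FPKM were tested as log2(FPKM + 1) with limma 3.58.1 in R 4.3.3 (eBayes with trend, two-sided, no covariate). The fit was checked on simulated data in which few genes changed, as many up as down, with no scaling difference between libraries. That check cannot speak to calls that depend on scaling. Shares and ratios were tested by exact permutation (scipy 1.17.1). Depth came from genes without introns (2500 bp or longer, deposited length within 10% of that in GENCODE 29), with a window set after values had been seen. In GENCODE 29, exons of ITGA5, ITGA6, ITGAV, ITGB1 and ITGB8 overlap opposite-strand genes, and those of ITGB6 a same-strand gene, none of them listed in the files. Alternatives were pseudocounts of 0.1 and 0.5, no filter or 5 FPKM, median scaling, quantile normalization, eBayes without trend or robust, the highest locus only, and each library left out; list counts over genes that reached the filter in both groups were added after values were seen.

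The members and lists were chosen with earlier results of these data known. Named genes were the 10 subunits, FOXD3, other subunits past the filter, up to 4 called genes with the largest change per list, and the 3 genes most like the subunit that changed most. FN1, PLEC, DST, CD151, PTPRC, ITGAM, ITGAL, ITGB7, NPNT and the markers CD14, CDH5, COL1A1, GP1BA, LYZ and PECAM1 were added after their values were seen. So were the calls of the single epithelial markers. One gene that the rule names is not reported here.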

Additional observations from a re-analysis of the deposited data

How the results depend on the processing

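No paired analysis was possible because the labels give no replicate numbers; replicates were numbered in accession order. Median scaling left 5 of the 10 subunits called lower. With a filter at 5 FPKM, 3295 symbols were called lower in place of 5050, ITGB8 was not tested and 1 other integrin subunit was called; with no filter 8 were called, and 3 among those that reached the filter in both groups. The filter sets which genes enter the test, and the cause of these changes in count was not tested. ITGB8 had a log2 change of 0.15 after quantile normalization, and ITGA2B lost its call there (limma adjusted p = 0.396); the cause was not tested. Over 37 named genes, 492 of 505 combinations of gene and setting kept direction and side of the threshold. Apart from the integrin subunits, these genes were named because they were called with the largest changes in the same libraries. Keeping their side was thus partly set by that choice, and the count does not measure stability. ITGB3, ITGA1, LIMS2 and TLN2, which passed the filter only through control, are included. ITGA3, ITGA5, ITGB1, ITGB4 and ITGB6 kept their calls in 14 of 14 alternatives. With single libraries left out, 6 to 7 of the 9 ratios did not overlap, and the FOXD3 difference was -0.20 to -0.12 FPKM. ITGB8 rests on 16.0 to 24.4 fragments per kilobase in the estimate of depth, which limits what could be seen for it.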

Other observations

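The 3 FOXD3 knockdown values of ITGA3 differed by a coefficient of variation of 0.0732%, and 2 of 4155 symbols with a mean of at least 20 FPKM, ITGA3 included, were at or below this in the FOXD3 knockdown group, where the median was 3.32%. In the control group ITGA3 had 5.58%, near the median of 5.47%. ITGB4 varied little in both groups, at 0.779% after knockdown (4.48% of symbols at or below it) and 0.829% in control (1.83% of symbols). ITGB5 had 1.79% after knockdown and 0.757% in control. ITGA5 varied more, at 4.69% after knockdown and 13.1% in control.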
